A study of Mus musculus with 6 samples.

Results

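FANTOM3 clones antisense to named genes are full-length mouse cDNA clones whose genomic span lies across a named gene on the opposite strand. In the deposited gene table, 33353 of 56826 rows carry FANTOM3 clone identifiers and the others carry gene names. A clone was taken where its position overlapped at least 1 named gene on the opposite strand and none on the same strand, and where its mean read count over the 6 libraries was at least 10. This held for 2829 clones of 3674 placed in that way, and the other 845 fell below the count. At the edge of the count, 3 clones had a mean of exactly 10 and 13 clones just outside had 9.833. The mean count chose the clones and is given as a description only. There were 3 TBI libraries, from cortex around the trauma focus of wild type C57BL/6 mice taken 24 h after a traumatic brain injury, and 3 control libraries, from normal cortex of wild type C57BL/6 mice. No treatment, and no animal age, injury method or operation on the controls, is stated in the labels used here. The labels do not say whether the 3 libraries of a group came from separate mice, so every p-value measures the spread between these libraries, which may be technical.

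An antisense transcript is copied from the strand opposite a gene and can pair with that gene's RNA where their exons overlap. Such transcripts start inside the gene, from a promoter shared head to head with it, or run into its end from a neighbouring gene. In brain, the long antisense transcript across Ube3a, the ubiquitin ligase gene affected in Angelman syndrome, silences the paternal allele in neurons, and antisense transcripts have also been described at Bace1, Sphk1, Hif1a, Zeb2 and Kcnip4. A FANTOM3 clone is a cDNA that was cloned once from some mouse tissue, so its presence in the table does not say that it is transcribed in cortex.

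Sequences are shown where the results below turn on an antisense start. The first 5 are RefSeq promoter windows of GRCm38.p6, from 250 bases before to 50 bases after the start of the gene. Each lies with all 300 bases inside the genomic span, introns included, of the antisense clone named with it. Capitals mark letters found on either strand that match TATAAA, the TATA box; TGACTCA, the AP-1 site; TGACGTCA, the cAMP response element; or TGCACNC and TGCGCNC, the core of the metal response element. The Ch25h window lies at chr19:34475099-34475398 on the minus strand under fantom3_A330070G18, and the Ifi30 window at chr8:70766614-70766913 on the minus strand under fantom3_6330537M06. The Mt2 window lies at chr8:94172368-94172667 on the plus strand under fantom3_B230377K03, and the Zyx window at chr6:42349578-42349877 on the plus strand under fantom3_C130015E19. The Dio2 window lies at chr12:90738989-90739288 on the minus strand under fantom3_4931407H24, a pair picked after its values were seen. The last 3 are the first 120 bases of clones that lie wholly in exons of a GENCODE M21 transcript of their own strand, read in GRCm38. These are fantom3_9330176F03 inside Capn2 (chr1:182494156-182494275, plus strand), fantom3_C130025H16 inside Kcnip4 (chr5:49070003-49070122, plus strand) and fantom3_9330162G02 inside Ube3a (chr7:59249051-59249170, minus strand).
Ch25h: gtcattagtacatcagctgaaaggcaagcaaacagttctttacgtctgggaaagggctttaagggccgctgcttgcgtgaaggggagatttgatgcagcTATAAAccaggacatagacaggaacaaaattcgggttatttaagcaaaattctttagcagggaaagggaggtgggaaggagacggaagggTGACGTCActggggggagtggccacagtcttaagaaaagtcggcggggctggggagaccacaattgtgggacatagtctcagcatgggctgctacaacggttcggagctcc
Ifi30: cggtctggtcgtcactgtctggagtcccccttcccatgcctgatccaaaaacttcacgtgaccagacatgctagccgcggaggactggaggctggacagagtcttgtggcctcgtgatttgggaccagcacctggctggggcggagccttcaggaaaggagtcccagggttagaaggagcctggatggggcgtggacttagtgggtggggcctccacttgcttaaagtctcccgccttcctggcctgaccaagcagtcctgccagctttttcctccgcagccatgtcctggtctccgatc
Mt2: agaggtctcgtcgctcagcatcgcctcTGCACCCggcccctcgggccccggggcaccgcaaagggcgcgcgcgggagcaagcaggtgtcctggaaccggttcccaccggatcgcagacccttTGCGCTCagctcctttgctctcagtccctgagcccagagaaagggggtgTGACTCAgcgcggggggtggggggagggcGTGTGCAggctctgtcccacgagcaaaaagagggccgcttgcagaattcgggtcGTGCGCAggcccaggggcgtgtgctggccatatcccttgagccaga
Zyx: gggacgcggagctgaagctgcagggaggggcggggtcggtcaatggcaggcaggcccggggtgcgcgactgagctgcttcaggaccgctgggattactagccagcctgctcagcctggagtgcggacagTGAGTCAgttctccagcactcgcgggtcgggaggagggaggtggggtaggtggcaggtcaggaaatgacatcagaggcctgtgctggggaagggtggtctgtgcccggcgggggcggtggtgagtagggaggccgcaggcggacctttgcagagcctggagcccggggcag
Dio2: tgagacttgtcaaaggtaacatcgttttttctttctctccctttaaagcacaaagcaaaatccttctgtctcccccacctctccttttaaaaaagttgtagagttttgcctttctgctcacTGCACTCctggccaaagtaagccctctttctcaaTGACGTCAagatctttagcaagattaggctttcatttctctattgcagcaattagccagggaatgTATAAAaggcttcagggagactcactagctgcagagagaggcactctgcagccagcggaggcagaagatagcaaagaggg
fantom3_9330176F03: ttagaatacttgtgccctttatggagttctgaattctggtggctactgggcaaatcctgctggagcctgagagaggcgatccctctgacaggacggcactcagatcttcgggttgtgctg
fantom3_C130025H16: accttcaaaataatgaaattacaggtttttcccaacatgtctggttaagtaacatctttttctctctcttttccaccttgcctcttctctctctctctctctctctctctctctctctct
fantom3_9330162G02: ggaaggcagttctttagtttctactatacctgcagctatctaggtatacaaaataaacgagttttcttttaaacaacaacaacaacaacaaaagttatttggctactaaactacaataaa

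The Ch25h window held 1 TATA box and 1 cAMP response element, and the Mt2 window held 4 metal response element cores and 1 AP-1 site. The Zyx window held 1 AP-1 site, the Dio2 window 1 TATA box, 1 cAMP response element and 1 metal response element core, and the Ifi30 window none of these letters. Of the 697 antisense clones that overlapped the 5′ end of their gene, 494 had a genomic span over part of a RefSeq promoter window of it. For 415 the span, introns included, covered a whole window. Among the 514 windows so touched, 7.98% held the TATA box, against 13.6% of all 32817 windows in the RefSeq table. The shares were 3.7% against 5.2% for the AP-1 site, 2.53% against 1.79% for the cAMP response element and 34.4% against 25.7% for the metal response element core. The touched windows had a median of 20 CpG dinucleotides and all windows a median of 7. A match is a description of letters and not a bound site.

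Total counts were 68808787 to 72169720 in the TBI libraries and 67252519 to 83929814 in the control libraries, and the 2829 clones held 1.5% to 1.53% of each. Markers of neutrophils summed to 34.4 to 102 RPKM in TBI and 0.616 to 2.81 RPKM in control, with 4 of 5 tested markers higher. Markers of monocytes and macrophages summed to 35.3 to 49.2 RPKM in TBI and 4.29 to 4.97 RPKM in control, with 5 of 5 higher. Markers of astrocytes summed to 520 to 570 RPKM in TBI and 400 to 427 RPKM in control, with 3 of 6 higher and 2 lower, and those of endothelium to 51.9 to 54.4 RPKM in TBI and 33.7 to 38.1 RPKM in control, with 3 of 6 higher. Markers of microglia summed to 72.7 to 76.3 RPKM in TBI and 75.8 to 80.4 RPKM in control, with 2 of 6 higher and 3 lower. Markers of choroid plexus summed to 254 to 625 RPKM in TBI and 91.0 to 169 RPKM in control, with 1 of 6 higher, and erythroid markers to 236 to 452 RPKM in TBI and 106 to 179 RPKM in control, with 1 of 5 higher. Markers of excitatory cortical neurons, which define the labelled tissue, summed to 164 to 189 RPKM in TBI and 191 to 238 RPKM in control. Of those neuronal markers, 2 of 6 were lower and none was at 0. In bulk tissue, fewer cells of a type and less RNA per cell cannot be told apart.

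The antisense clones lay across 2185 different genes. A single clone lay opposite each of 1722 genes and 2 or more lay opposite each of 463 genes, up to 14 at Ube3a, and 138 clones overlapped 2 or more named genes. Most clones, 1706, lay inside the gene, 697 overlapped its 5′ end, 384 its 3′ end, and 42 contained the gene. The median genomic span was 2440 bases and 1912 clones were unspliced, taken as a row length of at least 90% of the span, while 917 were spliced. On the clones' own strand, GENCODE M21 held a gene for 1491 and none for 1338. The most common class of that own-strand gene was antisense RNA, for 756 clones, and 136 were protein coding.

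Antisense clones were mostly low. Their median level was 0.799 RPKM (reads scaled by row length and by the library's total count), and the middle 50% of clones lay between 0.308 and 2.37 RPKM. Relative to the gene opposite, the median clone stood at 0.185 of the gene's RPKM, with library medians of 0.183 to 0.185 in TBI and 0.175 to 0.191 in control. The ratio differed with how much of the clone's genomic span lay over exons of the gene on the other strand. It was 0.0489 for the 750 clones with no base over such an exon, 0.134 for the 644 clones with over 0% to 10%, 0.276 for the 881 with over 10% to 50%, 0.625 for the 225 with over 50% to 90% and 0.594 for the 183 with over 90%. Clones on the same strand as their gene showed like steps, with 0.0397 at 0% and 0.784 at over 90%. The kit marks 1 strand with deoxy-UTP, but whether the authors counted by strand is not given in the sources used here, so reads of a clone and of exons opposite it are not told apart. By position, the median ratio was 0.157 for clones inside the gene, 0.148 at 5′ ends, 0.515 at 3′ ends and 1.36 for the 42 clones that contained the gene.

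**Figure D1:**
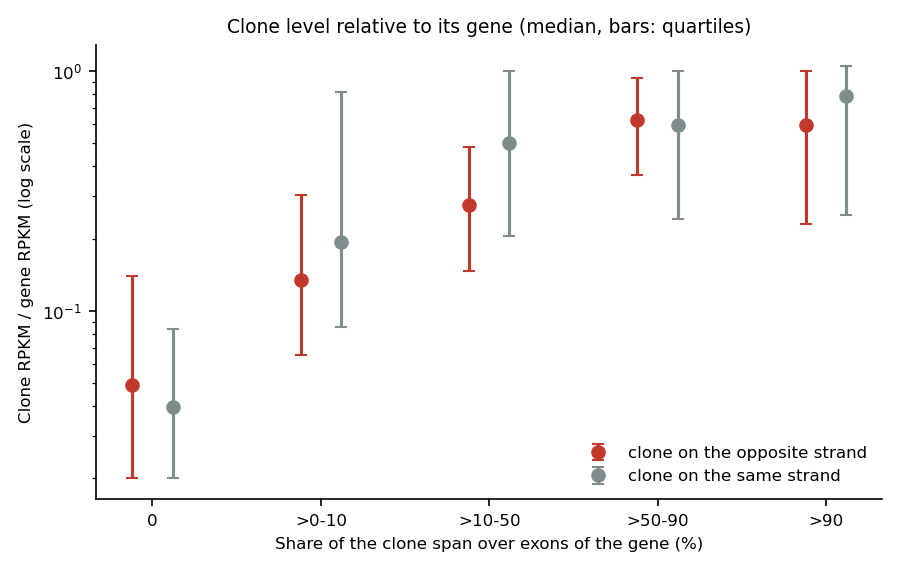
Ratio of clone RPKM to gene RPKM (log axis) by the share of the clone's genomic span that lies over GENCODE exons of the gene, for clones antisense to the gene and clones on its own strand, with medians and quartiles. Antisense medians run from 0.0489 at no exon overlap to 0.594 at over 90%, and same-strand medians from 0.0397 to 0.784.

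Few antisense clones changed after injury. With edgeR's quasi-likelihood test and Benjamini-Hochberg adjustment over all 42762 gene rows tested, 169 clones were higher and 157 lower in TBI than in control at an adjusted p under 0.05, 2490 were not called and 13 were not tested. This is 6.0% higher and 5.58% lower of the 2816 clones tested, against 9.16% higher and 8.69% lower of all rows. Changes of at least 2-fold numbered 88 higher and 20 lower, against 4.15% and 0.655% of all rows. The median log2 fold change was 0.03 over the tested clones and 0.01 over all rows. Of the 2185 genes opposite, 289 were higher and 376 lower, against 15.3% higher and 11.0% lower of the tested rows with gene names. The called clones belonged to 153 genes with a higher clone and 132 genes with a lower one.

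Called clones mostly moved in the direction of their gene. Of the 326 called clones, 261 lay opposite a gene called in the same direction, 3 opposite a gene called in the other direction, 55 opposite a gene that was not called and 7 opposite a gene that was not tested. Seen from the gene, 849 clones lay opposite a called gene and 261 of them were called the same way. Across 2770 pairs the log2 fold changes of clone and gene had a Pearson r of 0.73, a description over pairs that share their libraries and, where exons overlap, possibly their reads. The r was 0.54 over 733 pairs with no exon overlap, 0.73 over 616 with over 0% to 10%, 0.84 over 871 with over 10% to 50%, 0.92 over 224 with over 50% to 90% and 0.91 over 182 with over 90%. Of the antisense clones without exon overlap, 21 were higher and 25 lower, or 6.17% of those tested, and 22 of these moved with their gene. Clones on the same strand as their gene showed like values, with an r of 0.78 over 19588 pairs. Their r was 0.6 at no exon overlap and 0.91 at over 90%. Of the tested same-strand clones 12.8% were called, against 11.6% of the antisense clones. With their gene called too, 2098 same-strand clones moved the same way and 13 the other way.

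Among called clones whose groups did not overlap and whose higher group averaged at least 0.3 RPKM, the 8 largest rises, with 1 clone a gene, lay opposite Tnc, Ms4a6c, Dab2, Adamts9, Ifi30, Zfp36, Ch25h and Mt2. A larger rise, inside Il1r2, was fitted below that level and is given at the end. At Tnc, which encodes the extracellular matrix glycoprotein tenascin-C, fantom3_1700010B23 (chr4:63982693-63983243) had 73, 65 and 89 counts in TBI, against 3, 7 and 7 counts in control. Its level was 2.36 ± 0.442 RPKM in TBI and 0.163 ± 0.0577 RPKM in control (SD, n = 3 each), and the groups did not overlap. The log2 fold change was 3.73 ± 0.36 (SE), beside 3.23 ± 0.17 for Tnc itself. Each control count of this clone was under the minimum mean count used to choose clones, so it was kept through its TBI libraries. Its rise, though called by edgeR, is a description. The other 2 antisense clones of Tnc were called as well. The span of fantom3_8030451A03 contains that of fantom3_1700010B23, so these rows can count the same reads. For fantom3_8030451A03 the levels were 2.01, 1.59 and 2.45 RPKM in TBI, against 0.155, 0.181 and 0.213 RPKM in control, and for fantom3_6030496L02 in the same gene the log2 fold change was 3.15 ± 0.3. The control counts of fantom3_8030451A03 (7, 9 and 12) averaged under the same minimum, so its rise is a description too. GENCODE places 82.4% of the genomic span of fantom3_1700010B23 in exons of 8030451A03Rik, an own-strand transcript, and 41.9% of it over exons of Tnc. The span of 551 bases includes introns, and the clone's row length was 454 bases.

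Opposite Ms4a6c, a myeloid membrane protein of the MS4A family, fantom3_B430213F23 (chr19:11480205-11484535) had 1.23, 1.23 and 1.91 RPKM in TBI, against 0.141, 0.206 and 0.182 RPKM in control. TBI library 3 was the highest and no TBI library came near the control range. The clone overlaps the 3′ end of Ms4a6c and rose by 2.96 ± 0.21 on the log2 scale (edgeR adjusted p = 1.96e-07), and the gene by 3.28 ± 0.2. Opposite Dab2, an endocytic adaptor, fantom3_B930050H05 (chr15:6430228-6431277) had 2.74, 1.79 and 2.98 RPKM in TBI, against 0.354, 0.386 and 0.431 RPKM in control. Its groups did not overlap, and its log2 fold change was 2.59 ± 0.24, beside 2.54 ± 0.13 for Dab2. Opposite Adamts9, a secreted metalloprotease that cleaves proteoglycans, fantom3_9430083H06 (chr6:92872515-92875082) had 0.459, 0.647 and 0.566 RPKM in TBI, against 0.0753, 0.105 and 0.0835 RPKM in control. All 3 TBI libraries were above all 3 control libraries, and the log2 fold change was 2.58 ± 0.27, beside 2.48 ± 0.18 for Adamts9. Exons of the gene opposite lay under 25.1% of the clone's span at Ms4a6c, 14.7% at Dab2 and 8.22% at Adamts9. Shared reads are not told apart there.

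Ifi30 encodes a lysosomal thiol reductase of antigen-presenting cells and has an antisense clone at each end. At its 3′ end, fantom3_C230068I07 (chr8:70761106-70763438) had 2.1, 1.81 and 2.17 RPKM in TBI, against 0.331, 0.347 and 0.357 RPKM in control. The groups were far apart, and the log2 fold change of 2.47 ± 0.16 (edgeR adjusted p = 5.05e-08) stood beside 2.47 ± 0.15 for Ifi30, which had 7.06, 6.43 and 7.85 RPKM in TBI and 1.12, 1.38 and 1.14 RPKM in control. At its 5′ end, fantom3_6330537M06 (chr8:70766579-70768220), whose shared window is printed above, had 1.12, 0.852 and 1.04 RPKM in TBI, against 0.679, 0.625 and 0.515 RPKM in control. The TBI libraries were again all higher, but by a log2 fold change of 0.65 ± 0.21 (edgeR adjusted p = 0.0401). That call was lost without TBI library 1 (adjusted p = 0.17), TBI library 3 (0.118), control library 2 (0.0618) or control library 3 (0.156), and DESeq2 did not call it. The clone-to-gene ratio of this 5′ pair fell by 1.82 on the log2 scale (SE 0.17, limma adjusted p = 0.00876), while that of the 3′ pair changed by -0.01 ± 0.12 (limma adjusted p = 1.0). The ratio call of the 5′ pair was lost without TBI library 1 (0.0699), 2 (0.0592) or 3 (0.0836). Ifi30 exons lay under 13.8% of the span of the 3′ clone and 5.18% of that of the 5′ clone, where shared reads are not told apart.

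Zfp36 encodes tristetraprolin, which marks AU-rich messenger RNAs for decay, and lies wholly inside fantom3_F930050L08 (chr7:28376569-28380284). The clone had 2.56, 2.01 and 4.1 RPKM in TBI, against 0.604, 0.467 and 0.436 RPKM in control. TBI library 3 was the highest for both clone and gene. Of the clone's genomic span, 93.4% was over exons of Zfp36 in GENCODE, where the gene reaches beyond its row in the deposited table. The clone rose by 2.45 ± 0.3 on the log2 scale (edgeR adjusted p = 0.00152) and the gene by 2.48 ± 0.3. Mt2, a zinc- and copper-binding metallothionein, shares its 5′ end with fantom3_B230377K03 (chr8:94170752-94173412). That clone had 27.3, 29.0 and 37.2 RPKM in TBI, against 5.69, 4.99 and 6.36 RPKM in control, the highest level among the 8 largest rises. No libraries overlapped between groups, and the log2 fold changes were 2.37 ± 0.14 for the clone (edgeR adjusted p = 8.54e-07) and 2.4 ± 0.13 for Mt2. Of the clone's span, 16.2% was over Mt2 exons, and GENCODE holds all of it as Gm45774 on its own strand. In counts the clone had 5173, 5570 and 6820 in TBI and 1019, 985 and 1421 in control. Mt2 had 8577, 9100 and 11221 counts in TBI and 1623, 1602 and 2309 in control. The clone-to-gene ratio changed by -0.03 ± 0.02 on the log2 scale (limma adjusted p = 0.713), and shared reads are not told apart.

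**Figure D2:**
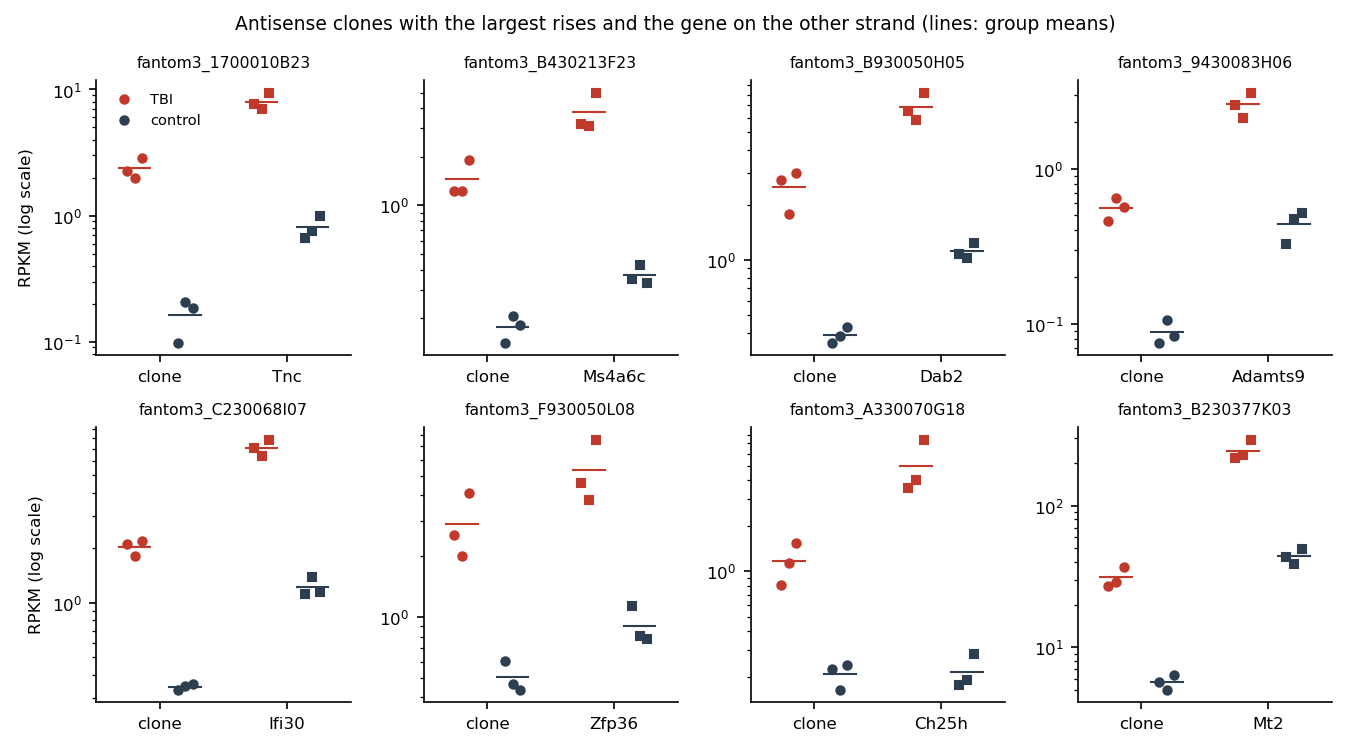
RPKM (log axis) of each library for the 8 rises chosen as above and for the gene opposite, with lines at group means. In every panel the 3 TBI libraries lie above the 3 control libraries for clone and gene, and at Ch25h the gene stands farther above control than the clone.

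Ch25h, which makes the oxysterol 25-hydroxycholesterol, had 2 antisense clones that overlap each other and start inside the gene. By span they cross the window printed above and run on away from the gene. Of their spans, 19.7% and 4.94% was over Ch25h exons, where shared reads are not told apart. The first, fantom3_A330070G18 (chr19:34474808-34476618), had 0.816, 1.14 and 1.53 RPKM in TBI, against 0.224, 0.164 and 0.239 RPKM in control. The other, fantom3_D930037A07 (chr19:34474833-34481546), had 0.475, 0.698 and 0.922 RPKM in TBI, against 0.177, 0.197 and 0.211 RPKM in control. Ch25h itself had 3.54, 4.02 and 7.41 RPKM in TBI, against 0.176, 0.19 and 0.282 RPKM in control. In all 3 rows the groups did not overlap and TBI library 3 was the highest. The log2 fold changes were 2.38 ± 0.29 and 1.75 ± 0.26 for the clones (edgeR adjusted p = 3.33e-05 and 0.000196) and 4.42 ± 0.36 for Ch25h (9.21e-05). The clone-to-gene ratio fell by 2.03 on the log2 scale for fantom3_A330070G18 (SE 0.23, limma adjusted p = 0.019) and by 2.67 for fantom3_D930037A07 (SE 0.2, 0.00494). The first ratio call was lost without TBI library 1, 2 or 3 (adjusted p of 0.162, 0.072 and 0.136) or without control library 1 (0.0633) or 3 (0.0891), and the other without TBI library 1 (0.065) or 3 (0.0541). Neither was called by edgeR's diffSpliceDGE, which sets the clone against clone and gene summed and so gives a smaller change where the clone holds many of the reads (-1.37, adjusted p = 0.467, and -1.58, adjusted p = 0.167). The summed markers of neutrophils and of monocytes and macrophages given above were higher in the same libraries as these clones and genes, and their part in the rises was not tested.

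Chosen in the same way, the 8 largest falls lay opposite Col19a1, Capn2, Kcnh7, Plekho1, Ano3, Pde4d, Slc8a3 and Ranbp3l. Opposite Col19a1, a collagen chain gene, fantom3_B230307H16 (chr1:24586581-24587739) had 0.727, 0.526 and 0.677 RPKM in TBI, against 2.33, 1.55 and 1.53 RPKM in control. The groups were apart, with control library 1 the highest. The log2 fold change was -1.57 ± 0.23 (edgeR adjusted p = 0.000206), beside -0.96 ± 0.11 for Col19a1. Opposite Kcnh7, which encodes a voltage-gated potassium channel, fantom3_F830230L13 (chr2:62992518-62993997) had 0.617, 0.346 and 0.412 RPKM in TBI, against 1.2, 1.18 and 1.16 RPKM in control. This clone has no base over a Kcnh7 exon, its control libraries were close together, and it changed by -1.44 ± 0.23 (edgeR adjusted p = 0.000425), beside -0.98 ± 0.12 for Kcnh7. Opposite Pde4d, a cAMP phosphodiesterase, fantom3_G630090I18 (chr13:109685107-109686273) had 0.903, 0.463 and 0.859 RPKM in TBI, against 2.37, 1.19 and 1.44 RPKM in control. TBI library 2 and control library 2 were the lowest of their groups, and the log2 fold change was -1.25 ± 0.31 (edgeR adjusted p = 0.0153), beside -0.39 ± 0.07 for Pde4d. Also antisense in Pde4d, fantom3_A630079M16 (0.02 ± 0.29, edgeR adjusted p = 0.972) and fantom3_A630036H22 (-0.16 ± 0.39, 0.84) were not called.

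Another 3 falls rested on fewer reads. Opposite Plekho1, a phosphoinositide-binding adaptor, fantom3_E230037C21 (chr3:95995919-95996459) had 13, 15 and 11 counts in TBI, against 30, 28 and 48 counts in control. Its log2 fold change was -1.42 ± 0.37 (edgeR adjusted p = 0.0135), and the call was lost without TBI library 3 (0.0511) or control library 3 (0.0788). Opposite Ano3, of the anoctamin family, fantom3_D730004N08 (chr2:110710341-110711129) had 8, 9 and 8 counts in TBI, against 15, 22 and 31 counts in control. Its log2 fold change was -1.41 ± 0.43, and edgeR's call held only without control library 1 among the 6 single libraries left out. DESeq2 did not call this clone. Each of its TBI counts was under the minimum mean count used to choose clones, so it was kept through its control libraries. Its fall is a description. Opposite Ranbp3l, fantom3_9230105E03 (chr15:9061793-9063589) had 0.242, 0.501 and 0.243 RPKM in TBI, against 0.786, 0.623 and 0.69 RPKM in control. TBI library 2 stood nearest to the control range, the log2 fold change was -1.16 ± 0.29 (edgeR adjusted p = 0.00989), and the call was lost without TBI library 1 (0.0544) or 3 (0.0514). Ranbp3l itself was not called (adjusted p = 0.122), but was by DESeq2 (0.0108) and without TBI library 2 (0.000384). Markers of excitatory neurons were lower in sum in the TBI libraries, as given above, and their part in these falls was not tested.

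At Capn2, clone and gene moved apart. Capn2 encodes the catalytic subunit of calpain 2, a calcium-activated protease, and had 26.3, 25.1 and 26.9 RPKM in TBI, against 16.1, 14.2 and 14.6 RPKM in control. Inside it, fantom3_9330176F03 (chr1:182494156-182498297), whose first bases are printed above, had 0.254, 0.324 and 0.288 RPKM in TBI, against 0.84, 0.684 and 0.711 RPKM in control. Both rows had groups that did not overlap, in opposite directions. The clone changed by -1.45 ± 0.18 on the log2 scale (edgeR adjusted p = 3.3e-05) and Capn2 by 0.72 ± 0.08 (1.41e-05), and their ratio by -2.16 ± 0.14 (limma adjusted p = 0.00213). No base of the clone was over a Capn2 exon, and the ratio kept its call without each of the 6 libraries in turn. The other antisense clone in Capn2, fantom3_A230097D22, had 4.32, 5.01 and 5.05 RPKM in TBI, against 5.57, 5.43 and 5.4 RPKM in control. It was not called on its own (log2 fold change -0.27 ± 0.11, edgeR adjusted p = 0.107), but its ratio to Capn2 changed by -0.99 ± 0.08 (limma adjusted p = 0.00556), a call lost without TBI library 3 or control library 3 (adjusted p up to 0.0551).

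Another 2 pairs had clone and gene called in opposite directions. Rpp38 encodes a protein subunit of ribonuclease P, and its 3′ end meets fantom3_C820015C23 (chr2:3327308-3328870). The clone had 25.1, 24.2 and 22.2 RPKM in TBI, against 28.9, 30.5 and 30.4 RPKM in control, and Rpp38 had 6.13, 6.81 and 5.87 RPKM in TBI, against 4.6, 4.35 and 4.93 RPKM in control. The clone lay 4.93 times above the gene in mean RPKM, and all of it is an exon of Nmt2, an N-myristoyltransferase gene of its own strand in GENCODE, which had 20.2, 19.5 and 17.9 RPKM in TBI and 22.9, 22.4 and 23.3 RPKM in control. The log2 fold changes were -0.41 ± 0.08 for the clone (edgeR adjusted p = 0.0015), -0.33 ± 0.08 for Nmt2 (0.00733) and 0.36 ± 0.12 for Rpp38 (0.0497). The Rpp38 call was lost whichever of the 6 libraries was left out, with adjusted p of 0.107, 0.164 and 0.0645 without TBI libraries 1, 2 and 3 and 0.103, 0.123 and 0.073 without control libraries 1, 2 and 3. It was also lost by DESeq2 (0.0735), limma-voom (0.0518), DESeq2's size factors (0.0524) and with no filter on low counts (0.0616). Its clone-to-gene ratio changed by -0.77 ± 0.06 (limma adjusted p = 0.00556), lost without TBI library 3 (0.0672) and by diffSpliceDGE (-0.09, adjusted p = 1.0). At the 3′ end of Megf11, a transmembrane protein with EGF-like repeats, fantom3_D930038P19 (chr9:64708672-64711967) had 13.3, 13.4 and 12.4 RPKM in TBI, against 15.5, 15.7 and 15.8 RPKM in control. Megf11 had 3.98, 3.36 and 3.56 RPKM in TBI, against 2.66, 3.05 and 2.84 RPKM in control, so neither row overlapped between groups. The log2 fold changes were -0.34 ± 0.07 for the clone (edgeR adjusted p = 0.00389) and 0.27 ± 0.09 for Megf11 (0.0438), and the Megf11 call was lost without TBI library 1 (0.232) or 3 (0.0894) or control library 1 (0.154) or 3 (0.114) and by DESeq2 (0.0618) and limma-voom (0.0534). The ratio changed by -0.61 ± 0.07 (limma adjusted p = 0.019), lost without TBI library 1 (0.146) or 3 (0.137) or control library 1 (0.0927) or 3 (0.147) and by diffSpliceDGE (-0.19, adjusted p = 0.947).

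Tested as a ratio, 3 antisense pairs shifted toward the clone and 19 toward the gene in TBI at a limma adjusted p under 0.05 over 22516 clone-gene pairs of either strand, while 2748 were not called and 59 not tested. Over all those pairs 0.147% shifted toward the clone and 0.244% toward the gene. At an unadjusted p under 0.05 there were 338 antisense pairs. Of the 22 ratio calls, 2 held whichever of the 6 libraries was left out, and 5 were also made by diffSpliceDGE. Several of the 19 share a gene, as at Ch25h and Capn2 above and at Mtmr11 and 9330182L06Rik. At Mtmr11, a catalytically inactive myotubularin relative, 4 overlapping clones cross the 3′ end. The longest, fantom3_D230021O22, had 2.88, 2.27 and 2.89 RPKM in TBI, against 1.23, 0.891 and 1.08 RPKM in control, and Mtmr11 had 4.97, 3.71 and 4.93 RPKM in TBI, against 1.39, 1.15 and 1.39 RPKM in control. The clones rose by 1.09 to 1.25 on the log2 scale and Mtmr11 by 1.71 ± 0.14. The ratio of the 3 shorter clones changed by -0.63 ± 0.08 (limma adjusted p of 0.0234, 0.0246 and 0.0234), and these clones share nearly all their bases. All 3 calls were lost whichever library was left out (0.0661 to 0.201) and by diffSpliceDGE (0.888 to 0.912).

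9330182L06Rik, a RIKEN gene, had 12.4, 13.5 and 11.5 RPKM in TBI, against 17.6, 16.6 and 16.2 RPKM in control. By the mean over the 6 libraries, each of its 4 antisense clones was higher than the gene. The clone with the smallest ratio p, fantom3_C130078G20 (chr5:9475802-9478735), had 15.3, 17.1 and 14.8 RPKM in TBI, against 33.9, 30.6 and 30.5 RPKM in control. All 4 clones were near to 2-fold lower in TBI, with log2 fold changes of -1.06, -1.09, -0.97 and -1.05 (edgeR adjusted p of 2.26e-06, 3.16e-07, 4.36e-06 and 8.17e-07), beside -0.51 ± 0.08 for the gene. The ratio changed by -0.58 ± 0.02 for fantom3_C130078G20 (limma adjusted p = 0.000231), by -0.46 ± 0.04 for fantom3_A230021E12 (0.00745) and by -0.53 ± 0.05 for fantom3_9330111N19 (0.00969), and it was not called for fantom3_B230358D11 (0.0612). The call of fantom3_C130078G20 held without each library (0.00246 to 0.00965), that of fantom3_A230021E12 was lost without TBI library 1 or 3 or control library 1 (up to 0.0699), and that of fantom3_9330111N19 without TBI library 1 or 2 or control library 1 or 3 (up to 0.0891). By diffSpliceDGE none of the 3 was called (0.267 to 0.511). The first 3 of these clones by position have no base over an exon of the gene, so their reads are not shared with its exons in this annotation. Reads from its introns are not told apart.

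The other named pairs that shifted toward the gene did so from different sides. At the 5′ end of Zyx, which encodes the focal adhesion protein zyxin, fantom3_C130015E19 (chr6:42328713-42350862) had 0.371, 0.382 and 0.435 RPKM in TBI, against 0.509, 0.548 and 0.515 RPKM in control, while Zyx had 6.82, 5.32 and 7.67 RPKM in TBI, against 3.92, 3.74 and 3.56 RPKM in control. Zyx rose (log2 fold change 0.74 ± 0.12, edgeR adjusted p = 0.000529), and the clone was not called (-0.48 ± 0.18, 0.0735). Inside Fyb, an adaptor of blood cells, fantom3_4932419C06 had 0.275, 0.259 and 0.314 RPKM in TBI, against 0.163, 0.176 and 0.215 RPKM in control. Fyb rose by 1.76 ± 0.16 (edgeR adjusted p = 2.31e-06), and the clone's 0.53 ± 0.24 was not called (0.162). Inside Slc8a3, a sodium-calcium exchanger of neurons, fantom3_B530002E09 (chr12:81228284-81243258) had 0.368, 0.503 and 0.38 RPKM in TBI, against 1.05, 0.857 and 0.757 RPKM in control. Here the clone fell by 1.17 on the log2 scale (SE 0.2, edgeR adjusted p = 0.000612) with no base over a Slc8a3 exon, while Slc8a3 itself had 6.12, 8.07 and 6.31 RPKM in TBI and 6.07, 7.56 and 5.84 RPKM in control. The ratio changes of these 3 pairs were -1.21 ± 0.15 (limma adjusted p = 0.0234), -1.21 ± 0.18 (0.0463) and -1.16 ± 0.17 (0.0457). The calls at Fyb and Slc8a3 were lost whichever of the 6 libraries was left out, with adjusted p of 0.0998 to 0.268 for Fyb and 0.0512 to 0.272 for Slc8a3. That at Zyx was lost without TBI library 1 (0.162) or 3 (0.137) or control library 1 (0.0871), 2 (0.0704) or 3 (0.147). By diffSpliceDGE the Zyx pair was called (0.0356), and the pairs at Fyb (0.22) and Slc8a3 (0.112) were not.

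At Elk1, an ETS transcription factor gene, fantom3_C630017M21 had 2.94, 2.85 and 3.28 RPKM in TBI, against 4.04, 3.42 and 2.98 RPKM in control, ranges that overlap, while Elk1 had 13.2, 15.6 and 14.5 RPKM in TBI, against 8.53, 8.05 and 8.9 RPKM in control. Their ratio changed by -0.96 ± 0.13 (limma adjusted p = 0.0408), a call that held only without control library 3 among the 6 left out (0.0478 to 0.237) and was also made by diffSpliceDGE (0.0171). At Aldh1l2, a mitochondrial folate enzyme gene, fantom3_D430033K11 had 1.34, 1.22 and 1.61 RPKM in TBI, against 0.868, 1.17 and 0.86 RPKM in control, and the ratio changed by -0.7 ± 0.08 (limma adjusted p = 0.0228). This call was lost whichever library was left out (0.0683 to 0.136) and by diffSpliceDGE (0.742). Mtmr11, 9330182L06Rik, Elk1 and Aldh1l2 were picked from the 19 pairs after their values were seen.

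Of the 3 pairs that shifted toward the clone, 1 was at Rere and another at a gene whose name the file holds as a date. Inside Rere, a nuclear receptor corepressor gene, fantom3_D730023M18 (chr4:150564440-150567613) had 1.34, 1.44 and 1.64 RPKM in TBI, against 0.867, 0.944 and 0.901 RPKM in control, while Rere had 5.38, 6.08 and 6.26 RPKM in TBI, against 5.68, 5.86 and 5.17 RPKM in control. The clone rose by 0.63 ± 0.13 (edgeR adjusted p = 0.0036) with Rere at 0.01 ± 0.08, and the ratio by 0.62 ± 0.09 (limma adjusted p = 0.0403). The Rere clone has no base over an exon of its gene. Wholly inside its span, fantom3_A630098N09 was not called (log2 fold change 0.5 ± 0.18, edgeR adjusted p = 0.0765). Neither was the ratio of fantom3_A630098N09 to Rere (0.49 ± 0.12, limma adjusted p = 0.208). The Rere ratio call was lost whichever of the 6 libraries was left out (adjusted p of 0.246, 0.119 and 0.211 without TBI libraries 1, 2 and 3, and 0.14, 0.093 and 0.117 without control libraries 1, 2 and 3). That at the gene with a date for a name was also lost whichever of the 6 was left out (0.0812 to 0.198), and diffSpliceDGE called neither pair (0.157 and 0.256).

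**Figure D3:**
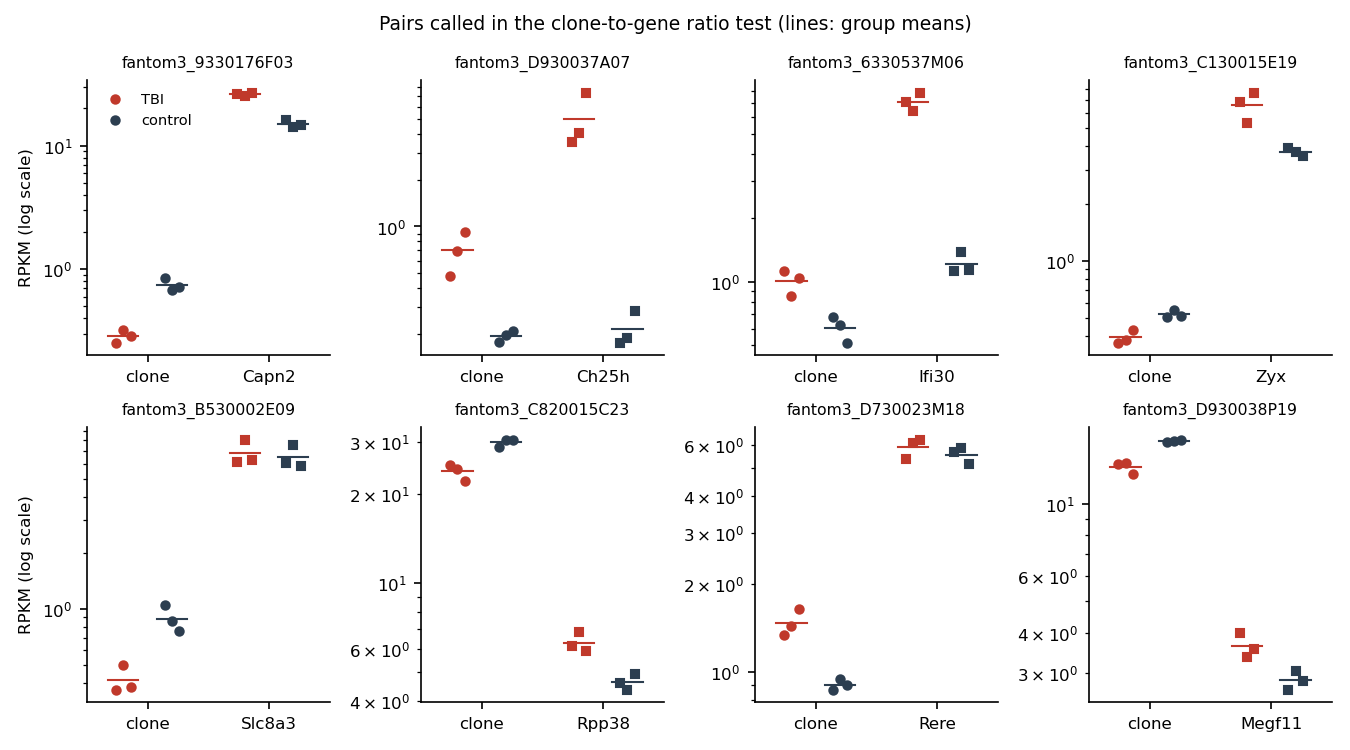
RPKM (log axis) of each library for 8 antisense pairs called in the ratio test, clone beside gene, with lines at group means. At Capn2, Rpp38 and Megf11 clone and gene are displaced in opposite directions, at Ch25h and Ifi30 both are higher in TBI by unequal amounts, and at Slc8a3 and Rere the clone is displaced while the gene libraries overlap.

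Called clones opposite a gene that was not called numbered 55. Apart from those in Slc8a3 and Rere, the smallest adjusted p were at Zmiz1, C2cd4b and Lrrc40. At the 5′ end of Zmiz1, a transcriptional coactivator gene, fantom3_C130026E14 (chr14:25455737-25461128) had 1.22, 0.943 and 1.13 RPKM in TBI, against 0.574, 0.677 and 0.471 RPKM in control. Of its genomic span of 5392 bases, introns included, 64.4% lay in exons of Zmiz1os1 on its own strand, and its row length was 3469 bases. The clone rose by 0.86 ± 0.17 (edgeR adjusted p = 0.00176). Zmiz1 at 0.44 ± 0.15 was not called (0.0776) but was by DESeq2 (0.0148) and without TBI library 2 (0.000685). At the 3′ end of Lrrc40, a leucine-rich repeat gene, fantom3_6430599A18 (chr3:158067190-158071558), an exon of B230334C09Rik on its own strand, had 16.5, 17.7 and 17.4 RPKM in TBI, against 21.3, 23.1 and 19.6 RPKM in control. It fell by 0.39 on the log2 scale (SE 0.08, edgeR adjusted p = 0.00188), beside -0.11 ± 0.08 for Lrrc40. Inside C2cd4b, fantom3_A730079K07 (chr9:67756423-67757929) had 2.06, 2.14 and 2.14 RPKM in TBI, against 3.04, 2.97 and 3.61 RPKM in control, a log2 fold change of -0.68 ± 0.13 (edgeR adjusted p = 0.00185). C2cd4b was not called (-0.34 ± 0.28, 0.484) but was without control library 2 (0.0238).

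The highest levels among these antisense clones were of short clones inside exons of abundant genes, where reads of clone and gene are not told apart. At Actb, the cytoplasmic actin gene, fantom3_D530001G04 (chr5:142903242-142903646) had 38431, 37334 and 40227 counts in TBI, against 22761, 24625 and 28723 counts in control. The groups did not overlap, and the clone's log2 fold change of 0.62 ± 0.07 (edgeR adjusted p = 3.14e-05) stood beside 0.54 ± 0.08 for Actb. At Ywhaz, a phosphoserine-binding adaptor, fantom3_A730082O16 averaged 193 ± 7.18 RPKM in TBI and 198 ± 10.1 RPKM in control. At Tspyl4, a gene of the nucleosome assembly protein family, fantom3_2610102M01 averaged 137 ± 13.3 RPKM in TBI and 143 ± 5.23 RPKM in control, and at Srsf5, a splicing factor, fantom3_F630203P03 averaged 129 ± 7.4 RPKM in TBI and 129 ± 2.61 RPKM in control. At Slc24a2, a neuronal calcium exchanger, fantom3_C630005J10 averaged 92.0 ± 8.73 RPKM in TBI and 102 ± 11.0 RPKM in control. None of these 4 was called (edgeR adjusted p of 0.318, 0.27, 0.53 and 0.141), except that fantom3_C630005J10 was lower without control library 2 (0.0275). Between 69.5% and 100% of the genomic span of each of the 5 clones was over exons of the gene opposite, and their levels were close to those of the genes.

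Grouped by the gene opposite, all called clones of the immune, glial and stress lists were higher. The lists were chosen with earlier results of these data known, so the direction of their clones is a description and not a test. Of the tested genes of these lists, 37 of 49, 28 of 32 and 25 of 47 were themselves higher, and 1, 1 and 3 lower. Over all rows 9.16% were higher and 8.69% lower. Opposite inflammation genes, 4 of 4 clones were higher, with a median log2 fold change of 1.24 against 0.01 over all rows. Opposite Rela, a subunit of NF-kB, fantom3_F630112B04 lay for 43.2% of its span over Rela exons. It had 1.89, 1.49 and 1.94 RPKM in TBI, against 1.01, 0.872 and 1.02 RPKM in control. The groups did not overlap, and clone and gene had log2 fold changes of 0.79 ± 0.14 and 0.79 ± 0.11 (edgeR adjusted p = 0.000922 and 0.000177). Opposite Nfkb2, another subunit, fantom3_F830019M12 lay for 32.0% of its span over Nfkb2 exons. It had 0.847, 1.07 and 1.12 RPKM in TBI, against 0.452, 0.464 and 0.273 RPKM in control, and rose by 1.28 ± 0.23 (edgeR adjusted p = 0.00097), and the overlapping fantom3_4833438C02 rose by 1.21. Opposite Il6ra, the interleukin 6 receptor, fantom3_E230021P13 had 29, 28 and 34 counts in TBI, against 11, 4 and 12 counts in control. Its log2 fold change was 1.74 ± 0.44, and edgeR's call was lost without TBI library 3. The control counts of this clone averaged under the minimum mean count used to choose clones. It was thus kept through its TBI libraries, and its rise is a description. The Nfkb2 gene, at 1.36 ± 0.27, was not called without control library 1 (0.055).

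Opposite genes of reactive glia and matrix, 6 of 7 clones were higher, with a median log2 fold change of 2.3. They were the 3 clones at Tnc, which overlap in part, and 3 overlapping clones at Sphk1. Overlapping clones can count the same reads, so these are not 6 separate results. As given above, fantom3_1700010B23 and fantom3_8030451A03 at Tnc were kept through their TBI libraries. Sphk1 makes the lipid signal sphingosine 1-phosphate. Its clone fantom3_G630016F13 (chr11:116531740-116533031) had 1.74, 1.39 and 1.41 RPKM in TBI, against 0.368, 0.261 and 0.258 RPKM in control, with 72.1% over Sphk1 exons. The groups did not overlap, and clone and gene had log2 fold changes of 2.28 ± 0.24 and 2.04 ± 0.14 (edgeR adjusted p = 7.18e-06 and 6.41e-08). The summed markers of astrocytes and endothelium given above were higher in the same libraries, and their part in these rises was not tested. The clone fantom3_1700007N19 at Ncan, the proteoglycan neurocan, was not called (log2 fold change -0.27, edgeR adjusted p = 0.115). Opposite stress and early response genes, 4 of 8 clones were higher and none lower, with a median of 0.7. These were the Mt2 clone above, fantom3_G370022D09 wholly over exons of Ier3, an immediate early gene, fantom3_9330175M06 at Ddit3, which encodes the stress factor CHOP, and fantom3_7330403C04 at the heat shock gene Hspa1b. The Ier3 clone had 16.7, 14.0 and 24.0 RPKM in TBI, against 3.39, 3.44 and 4.35 RPKM in control, and the Ddit3 clone had 5.28, 4.54 and 5.67 RPKM in TBI, against 3.23, 3.15 and 2.6 RPKM in control. Their groups did not overlap. The log2 fold changes were 2.2 ± 0.2 at Ier3, 0.71 ± 0.11 at Ddit3 and 0.69 at Hspa1b. Of the Ddit3 clone's span, 33.5% was over Ddit3 exons. The clones at Nqo1, Cdkn1a, Fosl2 and Gclm were not called.

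All called clones of the neuronal lists were lower, beside 8.69% lower of all rows. These lists, of synapses, ion channels and transcription factors, were chosen in the same way. Of their tested genes, 35 of 54, 24 of 38 and 16 of 34 were lower and none higher. Opposite genes of synapses and receptors, 7 of 28 clones were lower and none higher, with a median log2 fold change of -0.35. At Nrxn3, a presynaptic adhesion gene, fantom3_4933401A11 had 6.08, 4.81 and 5.36 RPKM in TBI, against 7.61, 7.56 and 6.87 RPKM in control, a log2 fold change of -0.52 ± 0.1 (edgeR adjusted p = 0.0023). Gabrd, a GABA-A receptor subunit gene, and Dlgap1, a postsynaptic scaffold gene, had lower clones too: fantom3_9630027M08 at Gabrd changed by -0.79 (edgeR adjusted p = 0.0271) and fantom3_C330045B04 at Dlgap1 by -0.35 (0.0319). At Nlgn1, a postsynaptic adhesion gene, fantom3_A830092H15 lay for 100% of its span over Nlgn1 exons. It had 6.89, 5.83 and 6.1 RPKM in TBI, against 7.36, 8.64 and 7.26 RPKM in control (-0.38 ± 0.1, edgeR adjusted p = 0.0184). That call was lost without TBI library 2 (0.067) or 3 (0.0615) or control library 2 (0.054).

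Opposite ion channel genes, 2 of 12 clones were lower and none higher, with a median log2 fold change of -0.19. Beside 8.69% of all rows, 2 clones are too few to read as more than the background. They were the Kcnh7 clone above and fantom3_K530032D24 (chr2:55433504-55437860) at the 5′ end of Kcnj3, a G protein-gated potassium channel gene. The Kcnj3 clone had 6.16, 6.66 and 6.27 RPKM in TBI, against 11.4, 8.85 and 9.73 RPKM in control, and Kcnj3 had 25.4, 25.3 and 24.4 RPKM in TBI, against 44.6, 33.1 and 39.3 RPKM in control. Clone and gene were separated between groups to the same extent, with log2 fold changes of -0.73 ± 0.1 and -0.72 ± 0.1 (edgeR adjusted p = 9.63e-05 and 0.000257). Of the Kcnj3 clone's span, 37.2% was over Kcnj3 exons, where shared reads are not told apart. Opposite neuronal transcription factors, 5 of 16 clones were lower and none higher, with a median of -0.31. At Mef2c, an activity-regulated factor, fantom3_F830107F19 (chr13:83663950-83667661) had 64.5, 62.7 and 62.6 RPKM in TBI, against 122, 96.1 and 103 RPKM in control, with 84.3% over Mef2c exons and a log2 fold change of -0.84 ± 0.09 (edgeR adjusted p = 1.35e-05). At Tbr1, a factor of deep-layer neurons, fantom3_4833438B03 lay for 49.0% of its span over Tbr1 exons. It had 1.23, 1.08 and 1.44 RPKM in TBI, against 2.77, 2.16 and 2.59 RPKM in control, a log2 fold change of -1.09 ± 0.17 (edgeR adjusted p = 0.000309). In both, no TBI library reached the control range.

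At the 5′ end of Satb1, a chromatin organizer, fantom3_A630040F03 had 1.06, 1.11 and 1.32 RPKM in TBI, against 2.46, 1.32 and 2.15 RPKM in control. Control library 2 met the top of the TBI range, and the log2 fold change was -0.85 ± 0.22 (edgeR adjusted p = 0.0158). The call was lost without TBI library 1 (0.0685) or 2 (0.0616) or control library 1 (0.0579) or 3 (0.0703), and Satb1 itself was not called (0.324) but was without control library 2 (0.00245). At Celf2, an RNA-binding protein gene, fantom3_C230017H15 was lower as well (log2 fold change -0.56, edgeR adjusted p = 0.0174). Neither of the 2 clones opposite myelin genes and none of the 6 opposite RNA processing genes was called. Inhibitory neuron markers summed to 200 to 234 RPKM in TBI and 245 to 298 RPKM in control, and the part of the neuronal marker levels in the lower clones was not tested.

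Loci where antisense transcripts have been described held 29 clones, of which 5 were higher and 2 lower, with a median log2 fold change of -0.04. Over all rows 9.16% were higher and 8.69% lower, so the 2 lower clones are near the background, and 3 of the 5 higher ones are the overlapping clones at Sphk1. Ube3a held 14 of them. Their mean levels were 2.95 to 11.8 RPKM, beside 25.8, 25.7 and 25.9 RPKM in TBI and 25.7, 27.4 and 25.8 RPKM in control for Ube3a, and none was called, with log2 fold changes of -0.25 to 0.11 and a lowest edgeR adjusted p of 0.0811. GENCODE places 10 of the 14 in exons of 9330162G02Rik on the clones' strand, and 9 have no base over a Ube3a exon. The clone fantom3_9330162G02, whose first bases are printed above, had 4.94, 4.7 and 4.89 RPKM in TBI, against 3.72, 5.35 and 4.7 RPKM in control, so the TBI libraries lay inside the control range. The clone with the lowest p, fantom3_A330053D07 near the 3′ end of Ube3a, had 11.2, 11.0 and 11.1 RPKM in TBI, against 10.7, 14.6 and 12.3 RPKM in control. It was lower only without control library 1 (adjusted p = 0.022).

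**Figure D4:**
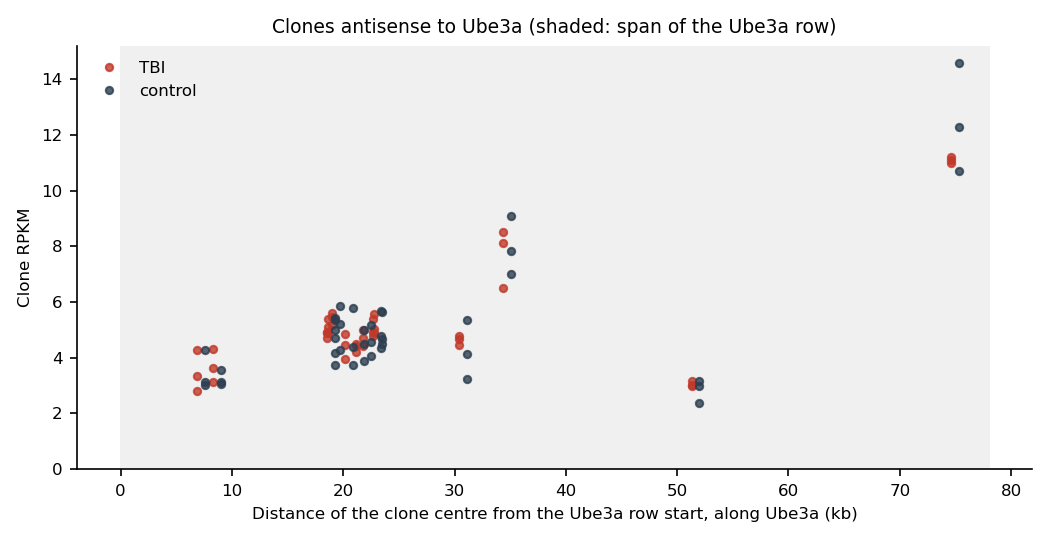
RPKM of the 14 clones antisense to Ube3a in each library, by distance of the clone's centre from the start of the Ube3a row. TBI and control points overlap at each clone, and the level is highest, at 10.7 to 14.6 RPKM, for the clone nearest the 3′ end of Ube3a.

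At Nudt6, a nudix hydrolase gene that runs antisense to the growth factor gene Fgf2, fantom3_6030474N20 (chr3:37405312-37410106) had 5.62, 5.2 and 7.5 RPKM in TBI, against 1.36, 1.33 and 1.4 RPKM in control. In GENCODE all of this clone lies in exons of Fgf2, so here the clone is part of the growth factor transcript and Nudt6 is its antisense partner. The named Fgf2 row had 3.58, 3.61 and 5.42 RPKM in TBI, against 0.62, 0.932 and 0.754 RPKM in control, and Nudt6 had 4.55, 4.08 and 5.44 RPKM in TBI, against 2.27, 1.67 and 1.63 RPKM in control. No row overlapped between groups. The log2 fold changes were 2.08 ± 0.13 for the clone (edgeR adjusted p = 9.28e-08), 2.36 ± 0.23 for Fgf2 (3.18e-06) and 1.25 ± 0.17 for Nudt6 (8.36e-05), and the clone-to-gene ratio at 0.81 ± 0.13 was not called (limma adjusted p = 0.0592) except without control library 1 (0.0411). By the table's positions the Fgf2 row does not reach this clone.

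Inside Kcnip4, which encodes a potassium channel-interacting protein, fantom3_C130025H16 (chr5:49070003-49073462), whose first bases are printed above, had 2.99, 2.66 and 3.07 RPKM in TBI, against 3.57, 4.83 and 4.42 RPKM in control. The groups did not overlap and no base of the clone was over a Kcnip4 exon. The log2 fold changes were -0.64 ± 0.11 for the clone (edgeR adjusted p = 0.000699) and -0.44 ± 0.08 for Kcnip4 (0.000811). At Hif1a, the hypoxia factor gene, fantom3_C230070P12 had 9.82, 9.49 and 11.5 RPKM in TBI, against 6.86, 7.13 and 8.05 RPKM in control. Clone and gene had log2 fold changes of 0.4 ± 0.1 (edgeR adjusted p = 0.013) and 0.41 ± 0.08 (0.00165), and the clone's call was lost without TBI library 3 (0.0804) or control library 1 (0.054). The clones at Bace1, the beta-secretase gene, were not called: fantom3_5730407P16 had 11.2, 11.3 and 10.8 RPKM in TBI, against 12.3, 10.9 and 10.3 RPKM in control, ranges that overlap. This clone lay for 46.3% of its span over Bace1 exons. The clones at Zeb2, Sirt1, Pax6 and Nr1d1 were not called either. At Zeb2, fantom3_A830015M10 had 0.308, 0.185 and 0.365 RPKM in TBI, against 0.397, 0.444 and 0.551 RPKM in control (log2 fold change -0.78 ± 0.33, edgeR adjusted p = 0.118).

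Some clones with no base over an exon of the gene opposite, and a clone at Dio2, were picked after their values were seen. Reads of the gene opposite are not told apart in them either, since it is not given whether counting was by strand. Clones without exon overlap had like median clone-to-gene RPKM ratios on either strand (0.0489 antisense and 0.0397 same-strand). Inside Il1r2, the decoy receptor for interleukin 1, fantom3_F830011I17 had 29, 24 and 74 counts in TBI, against 2, 0 and 0 counts in control. Each control count was under the minimum mean count of 10, so this clone was kept through its TBI libraries and its rise is a description. The ratio of summed counts per library total was 67.4 (95% exact interval 18.3 to 563.0, for counting error only). It is the largest fitted rise among these clones, and Il1r2 itself rose by 4.44 on the log2 scale. Inside Pip5k1b, a phosphoinositide kinase gene, fantom3_8030467N08 had 25, 27 and 43 counts in TBI, against 11, 7 and 13 counts in control, a log2 fold change of 1.61 (edgeR adjusted p = 0.0137) beside -0.30 for Pip5k1b, which was not called. Inside Slc39a11, a zinc transporter gene, fantom3_A830040H01 had 53, 55 and 32 counts in TBI, against 123, 71 and 110 counts in control, a log2 fold change of -1.13 (edgeR adjusted p = 0.0109) beside 0.21 for Slc39a11, which was not called. At the 5′ end of Dio2, the enzyme that activates thyroid hormone, fantom3_4931407H24 (1.91% over Dio2 exons) had 0.545, 0.524 and 0.382 RPKM in TBI, against 0.919, 0.807 and 1.07 RPKM in control. Dio2 had 8.96, 10 and 8.21 RPKM in TBI, against 31.5, 26.3 and 31.5 RPKM in control. Both were lower with no overlap between groups, by log2 fold changes of -1.03 ± 0.19 and -1.8 ± 0.1 (edgeR adjusted p = 0.00114 and 2.73e-08), and the ratio at 0.76 ± 0.13 was not called (limma adjusted p = 0.0876).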

How the data were processed

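RNA was sequenced from cortex of 3 TBI and 3 control mouse libraries. Per the labels' protocols, fragmented total RNA was copied to cDNA with 1 strand marked by deoxy-UTP. The submitters' processing notes list TopHat2 and mm10. How reads were counted, by strand or not, and on which gene models is not given in the sources used here. The deposited gene table holds, per the file headers, a read count and an RPKM value for each library. Rows overlap, so a read can count in several, and 54.2% of counts from 1 to 20 were even. A total of 27 rows carry a date for a name. The deposited RPKM equalled the count scaled by row length and column total.

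The clones, the gene lists and the naming rule were chosen with earlier results of these data known. A valid position had an end not before its start and a span of at most 3000000 bases, which left out 50 rows. The gene opposite was that with the largest overlap, ties going to the higher mean count. Exons came from GENCODE M21 (GRCm38), matched by symbol, chromosome and strand, and promoter windows from RefSeq (GRCm38.p6).

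All 56826 rows entered 1 fit of their counts by edgeR (version 4.0.16, R 4.3.3; quasi-likelihood F test, TMM, filterByExpr with minimum count 10 and minimum total 15, robust, no block). The clone-to-gene ratio, log2 of (clone count + 0.5)/(gene count + 0.5), was tested with limma 3.58.1 (trend, robust) over 22516 pairs. P-values are two-sided with Benjamini-Hochberg adjustment over all rows or pairs, and calls use 0.05. Standard errors of edgeR are the fold change over the root of F. Fits were tested on simulated data. Alternatives were DESeq2 1.42.0 and its size factors, limma-voom, no filter, halved counts, a replicate block, each library left out, mean count 50, overlap of 50%, pseudocount 5 and edgeR's diffSpliceDGE; keeping spans over 3000000 bases was added after seeing the data.

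Named clones, never from chromosome 18, were the 8 largest rises and falls among called clones whose groups did not overlap and whose higher group averaged at least 0.3 RPKM, the 5 highest, pairs called in opposite directions, the 5 largest ratio changes each way, the 5 lowest p with the gene not called, up to 3 called per list and all at known antisense loci, 1 a gene in each. Clones outside it are marked, share a gene with one inside it, or complete a list's count; these were added after their values were seen. Some clones the rule names are counted but not reported here by name.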

Additional observations from a re-analysis of the deposited data

How the results depend on the processing

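The counts of higher and lower clones (169 and 157) stayed within 1.5 times under the alternatives run: DESeq2 gave 157 and 158, the replicate block 186 and 174, and single libraries left out 116 to 171 and 108 to 184. Of the 326 called clones, 305 were also called by DESeq2 and 215 to 271 with a library left out. Over the named clones and the 12 ratios called among them, 679 values under alternatives kept their side of the threshold, 98 lost a call and 2 gained one, and no called value changed direction. Outside these, the uncalled ratios at Actb and Nudt6 were called with a library left out (adjusted p of 0.0381 and 0.0411), and 14 uncalled values changed sign. The ratio test depended most on the setting. Pairs shifted toward the clone were 3, against 0 with the replicate block and 0 to 3 with a library left out, and pairs shifted toward the gene were 19, against 5 with diffSpliceDGE, 2 with the replicate block, 11 where at least 50% of the clone was overlapped and 3 to 11 with a library left out. With a minimum mean count of 50, 183 genes opposite were higher in place of 289, from fewer clones, and the median clone-to-gene RPKM ratio was 0.254 in place of 0.185. The replicate numbers do not pair the samples by the labels: same-numbered TBI and control libraries had correlations of deviations of 0.0543, 0.0546 and 0.0487, each the highest for its number, a hint from the data and not the design. With the replicate block 21 of the 22 ratio calls were lost, among them all 12 of the pairs named by rule (Capn2 at an adjusted p of 0.0909), and that of fantom3_C130078G20 was kept (0.0213). The block called the Satb1 gene (0.000897) and the Ranbp3l gene (0.0442), and lost the Rpp38 gene (0.053). The cause of these differences was not tested. Clones near the minimum mean count of 10 carry few reads per library, so small changes in them were not detectable at this depth.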
